A study of Mus musculus with 4 samples.

Results

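Axon guidance ligands and receptors are the secreted, membrane-bound and receptor proteins that steer growing axons and migrating neurons. They were examined as 53 genes of 4 signalling systems: 27 genes of the semaphorin system, 17 of the ephrin system, 5 of the Slit system and 4 of the netrin system. The genes were given as a list, chosen with earlier results of these data known. Their probes were every non-control probe annotated with a RefSeq accession of a listed gene, and only this step used no measured value. This rule found 73 of the 55681 non-control probes, of which 65 passed the filter on dim spots that left 26912 probes in all. At least 1 probe was kept for 52 of the 53 genes, among 20591 features fitted. The exception was Slit3, a Slit ligand whose probe was well above background on 2 of 4 arrays in either genotype.

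One set of cultures came from APPswe/PS1dE9 mice, a familial Alzheimer's disease model that carries the transgenes of its name, driven by the mouse prion protein promoter. The other cultures came from wild-type (WT) mice. In both genotypes, telencephalic precursor cells of C57BL/6 embryos at day 13 were grown for 5 days as neurospheres, free-floating clusters of dividing neural cells, with EGF and FGF2 at 20 ng/ml each. They were then plated and differentiated for 7 days after these factors were withdrawn. Each of 4 Agilent arrays carried the amplified RNA of 1 APPswe/PS1dE9 culture and 1 WT culture, and the dyes were exchanged so that APPswe/PS1dE9 was labelled with Cy3 for replicates 1 and 2 and with Cy5 for replicates 3 and 4. Whether each culture had its own dam or litter is not in the labels, and p-values therefore cover only the spread among these arrays, which may be technical.

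Guidance cues act at short or long range on the growth cone, the moving tip of an axon, and either attract or repel it. Semaphorins signal through plexins, with neuropilins as co-receptors for the secreted class 3 members. Ephrins are membrane-bound and engage Eph receptor tyrosine kinases on neighbouring cells, with signals passing into both cells. Slits repel through Robo receptors, while netrin 1 attracts through Dcc and repels through Unc5 receptors. In the developing telencephalon these systems also act on precursor cells, migrating neurons, glia and blood vessels.

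Of the 52 measured genes, 2 were higher and 5 lower in APPswe/PS1dE9 cultures, and 45 did not pass the test (limma, two-sided, Benjamini-Hochberg adjusted p under 0.05 over all 20591 features). Higher were Efna1, an ephrin-A ligand, and Sema4d, a transmembrane semaphorin. Lower were the Eph receptors Epha3 and Epha4, the ephrin-B ligand Efnb2, the Slit receptor Robo2 and the transmembrane semaphorin Sema6c. The 7 genes are 13.5% of those measured, where 10.5% of all features and 13.6% of all named genes passed, so the share as a whole was near the background. By direction, 8.25% of all features were higher and 2.28% were lower. In bulk RNA of a culture, fewer cells of a type and less RNA per cell cannot be told apart.

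The count of 7 moved with single arrays. Without replicate 4 0 guidance genes passed in limma, with 20 at an unadjusted p under 0.05, where the fit of all arrays had 18 at that level. The share of all features at that level was not counted, so these unadjusted counts have no background beside them. Without replicate 3 the 2 that passed were Efna1 and Efnb2, and there were 6 without replicate 2 and 11 without replicate 1. The share of all features that passed moved too, to 13.5%, 10.0%, 2.66% and 1.81% without replicates 1 to 4 in turn. Median centring in place of loess gave 1 higher and 12 lower, where over all features it gave 1308 higher and 1307 lower. The median log2 ratio of the 52 genes was 0.01, as was that of all features, and it turned to -0.09 with median centring and to -0.13 with the processed signals of the scanner software. These settings shifted the median of all features as well, to -0.074 and -0.065.

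Spread over the systems, the semaphorin genes had 1 higher and 1 lower of 27 and the ephrin genes 1 higher and 3 lower of 17. The Slit system had 1 lower of 4 measured, and the netrin system none of 4. The median log2 ratio was -0.01 in the semaphorin and in the ephrin system, -0.11 in the Slit system, where it was 0.02 without the filter on dim probes, and 0.10 in the netrin system, where it was -0.040 with median centring and its all-feature median of -0.074. Divided by role instead, 2 ligands were higher and 2 lower of 28, and of 24 receptors 0 were higher and 3 lower. No test was made of a difference between systems or between roles.

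Promoter sequences are given for the 4 ephrin-system genes that passed the test, the system with the most calls. Each is the stretch of 250 bases before the annotated start in RefSeq (GRCm38.p6), 5′ to 3′ on the gene's strand. Capitals mark a CCAAT box (CCAAT, or ATTGG on the other strand) and a GC box (GGGCGG, or CCGCCC on the other strand), common elements of promoters. Efna1 lies at chr3:89280952-89281201 on the minus strand, the outermost of 2 listed starts. Efnb2 lies at chr8:8661243-8661492, Epha3 at chr16:63864176-63864425 and Epha4 at chr1:77515089-77515338, all on the minus strand.
Efna1: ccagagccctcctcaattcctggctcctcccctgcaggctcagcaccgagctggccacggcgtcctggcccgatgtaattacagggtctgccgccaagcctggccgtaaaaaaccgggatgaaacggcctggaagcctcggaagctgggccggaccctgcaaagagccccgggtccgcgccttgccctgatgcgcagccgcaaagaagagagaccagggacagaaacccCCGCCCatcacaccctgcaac
Efnb2: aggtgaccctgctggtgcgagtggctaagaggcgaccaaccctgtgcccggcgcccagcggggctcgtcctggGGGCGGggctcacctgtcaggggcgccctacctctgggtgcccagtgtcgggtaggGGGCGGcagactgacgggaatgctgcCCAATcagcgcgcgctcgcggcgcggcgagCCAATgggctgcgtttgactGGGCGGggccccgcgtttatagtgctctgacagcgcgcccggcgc
Epha3: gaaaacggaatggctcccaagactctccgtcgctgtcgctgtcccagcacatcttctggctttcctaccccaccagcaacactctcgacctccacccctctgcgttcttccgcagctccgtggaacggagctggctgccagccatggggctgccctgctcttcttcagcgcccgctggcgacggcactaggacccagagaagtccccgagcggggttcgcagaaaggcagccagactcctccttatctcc
Epha4: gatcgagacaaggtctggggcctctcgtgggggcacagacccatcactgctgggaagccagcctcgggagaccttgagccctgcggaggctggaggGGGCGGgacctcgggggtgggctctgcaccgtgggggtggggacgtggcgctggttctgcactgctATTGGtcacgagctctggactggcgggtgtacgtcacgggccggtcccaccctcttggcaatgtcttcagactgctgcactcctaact

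The windows differed in these elements. Efnb2 had 2 CCAAT boxes and 3 GC boxes, Epha4 had 1 of each, Efna1 had 1 GC box, and Epha3 had none of either. Of 45 guidance genes with a window in the RefSeq table, 35 held a GC box (77.8%) and 13 a CCAAT box (28.9%). Among 27025 genes with a window, 35.4% held a GC box and 37.5% a CCAAT box on either strand. TGGGAA, the core bound by RBPJ, the DNA-binding partner of Notch, was also sought on both strands. It shares no full match with a CCAAT or GC box, and stood in 10 of the 45 genes (22.2%) and in 24.1% of all genes. Among the 7 genes past the test it was in Epha4, Robo2 and Sema4d. A match of letters is a description of the window and shows no binding.

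Per array and channel, 47.5% to 59.6% of 59305 probe spots exceeded background by the scanner software's own call, and 0 spots were saturated. As checks of the labels, App was at a log2 ratio of 0.12 ± 0.06 (SE, n = 4 arrays; limma adjusted p = 0.281) and did not pass, so the genotype labels were not checked at a transgene. By Xist and the Y-linked gene Eif2s3y, the cultures of replicates 1 and 3 differed in sex between the genotypes. On replicates 2 and 4 both cultures had Xist well above background and neither had Eif2s3y. Plxna3 and Efnb1 are X-linked. Spearman correlations of the ratios over all features were 0.55 and 0.49 between arrays of the same dye orientation and 0.11 to 0.27 between orientations.

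Markers of several cell types moved with genotype in the same cultures. Over all features, 8.25% were higher and 2.28% lower. Of 12 measured microglial markers, 11 were higher and 0 lower. The summed signals of the 12 were 13295 to 17525 in APPswe/PS1dE9 cultures and 9004 to 11036 in WT cultures. Most of each sum was Itgam, the 1 marker that did not pass, at a log2 ratio of 0.11 (limma adjusted p = 0.552). P2ry12 was not kept by the filter, and Cd68 had no matched probe. Of the 11, 6 were kept through the APPswe/PS1dE9 channel alone (Cx3cr1, Tmem119, C1qa, Tyrobp, Trem2 and Ctss), being well above background on 1 or 2 WT arrays, so the count over this list is a description. Of 12 astrocyte markers, 7 were higher and 0 lower, with sums of 202700 to 227812 in APPswe/PS1dE9 cultures and 137061 to 177220 in WT cultures. Of 9 choroid plexus and ependymal markers, 8 were higher, with sums of 11409 to 16332 in APPswe/PS1dE9 cultures and 6138 to 6977 in WT cultures. The sums of these 3 lists did not overlap between genotypes. Neuronal markers were mixed, with 2 higher (Syt1 and Syp) and 4 lower (Dcx, Nefl, Nefm and Elavl3) of 12, and sums of 97667 to 111235 in APPswe/PS1dE9 cultures overlapping 107597 to 125168 in WT cultures. Of 10 progenitor markers 4 were higher and 1 lower, with sums of 70511 to 83215 in APPswe/PS1dE9 cultures and 50131 to 65572 in WT cultures, but the list's median log2 ratio was 0.09 and 4 of 10 lay below 0, with Vim at 0.97 and Hes5 at -0.63. Of 8 fibroblast and mural markers 1 was higher and 2 lower (Lum and Pdgfrb). Lum was kept through the WT channel alone, being well above background on 1 APPswe/PS1dE9 array and 4 WT arrays. The list's sums were 11679 to 16166 in APPswe/PS1dE9 cultures and 7727 to 10578 in WT cultures. Its median log2 ratio was -0.15 and 6 of 8 lay below 0, with S100a4 at 1.28 and Acta2 at 0.46. Of 12 oligodendrocyte-lineage markers 0 passed. Of 8 endothelial markers 5 were measured and 2 were higher, of which Flt1 was well above background on 3 APPswe/PS1dE9 arrays and 0 WT arrays. The endothelial markers Cdh5, Tek and Cldn5 were not kept by the filter. It also left out Kl of the choroid plexus and ependymal list, and Rgs5 and Kcnj8 of the fibroblast and mural list. The sums of the oligodendrocyte-lineage and endothelial lists overlapped between genotypes. The part of these cell types in the guidance gene results was not tested.

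Among the semaphorin ligands, Sema4d passed the test as higher. Sema4d encodes a transmembrane class 4 semaphorin that binds plexin-B1, made by neural cells and by leukocytes. Its log2 signal was 9.11, 9.02, 9.16 and 8.94 in the APPswe/PS1dE9 cultures of replicates 1 to 4, against 8.86, 8.63, 8.86 and 8.60 in the WT cultures. Every APPswe/PS1dE9 value stood above every WT value. The ratio was 1.25-fold, or 0.32 ± 0.06 on the log2 scale (SE, n = 4 arrays; limma adjusted p = 0.0279), and 0.25, 0.39, 0.30 and 0.35 on the single arrays. Without replicate 2 the log2 ratio was 0.28 (limma adjusted p = 0.0791), without replicate 3 it was 0.33 (limma adjusted p = 0.124) and without replicate 4 it was 0.31 (limma adjusted p = 0.145). The processed signals gave 0.23 (limma adjusted p = 0.128) and median centring 0.24 (limma adjusted p = 0.174).

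Sema6c, a transmembrane class 6 semaphorin, was the lowest of the system. Its log2 signal was 10.47, 10.53, 10.44 and 10.52 in APPswe/PS1dE9 cultures, against 10.72, 10.86, 10.89 and 11.04 in WT cultures, in replicate order. The APPswe/PS1dE9 signals lay within a narrow range below all 4 WT signals. The log2 ratio was -0.39 ± 0.06 (SE, n = 4 arrays; limma adjusted p = 0.0133), with -0.25, -0.33, -0.45 and -0.53 on the arrays. Its second kept probe gave -0.17 and did not pass (limma adjusted p = 0.262). The adjusted p of the first probe in limma was 0.0823 without replicate 3, 0.108 without replicate 4 and 0.0512 with the processed signals.

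The other semaphorin ligands among the 53 genes did not pass. Their secreted class 3 ligands, which act through neuropilins and A-type plexins or, for Sema3e, directly on plexin-D1, ranged from -0.03 (Sema3e) over -0.02 (Sema3c) and -0.01 (Sema3a) to 0.09 (Sema3f). Sema3e was well above background on 3 APPswe/PS1dE9 arrays and 2 WT arrays, and Sema3b, a class 3 ligand outside the 53, is given with the related genes. Class 4 ran from -0.13 (Sema4b) and -0.02 (Sema4a) to 0.07 (Sema4f), 0.13 (Sema4c) and 0.23 (Sema4g). In class 5, whose members carry thrombospondin repeats, Sema5b was at -0.03 and Sema5a at 0.06. In class 6, Sema6a was at -0.12, Sema6b at 0.01 and Sema6d at 0.03. The adjusted p of these 14 genes in limma was 0.176 or above.

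Sema7a, a GPI-anchored ligand of plexin-C1 and of integrins, had separate signals in the genotypes but did not pass. Its log2 signal was 10.79, 10.78, 10.89 and 10.83 in APPswe/PS1dE9 cultures, against 11.02, 11.10, 11.04 and 11.10 in WT cultures. All 4 APPswe/PS1dE9 values were below all 4 WT values. The log2 ratio was -0.24 ± 0.06 (SE, n = 4 arrays; limma adjusted p = 0.0633).

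Of 8 plexins and 2 neuropilins, 0 passed in limma, while 5 plexins and 1 neuropilin had an unadjusted p under 0.05. How many of all features reached that level was not counted, so no excess can be read from it. Among A-type plexins, signalling partners of neuropilins, Plxna4 was at -0.33 ± 0.08 and was below 0 on all 4 arrays (SE, n = 4 arrays; limma adjusted p = 0.0617). Plxna2 was at -0.28 ± 0.07 (adjusted p = 0.0606), Plxna3 at -0.25 ± 0.07 (adjusted p = 0.0904) and Plxna1 at 0.03 ± 0.06 (adjusted p = 0.824) in the same limma fit. Of the B-type plexins, receptors of class 4 semaphorins, both among the 53 had positive values, with Plxnb2 at 0.31 ± 0.09 (adjusted p = 0.0869) and Plxnb1 at 0.23 ± 0.07 (adjusted p = 0.0871), each above 0 on all 4 arrays in limma. Plxnb3, outside the 53, was at -0.10 ± 0.06 (limma adjusted p = 0.353), with 0.13, 0.07, -0.30 and -0.30 on the arrays. Plxnb2 had log2 signals of 12.64, 12.96, 12.96 and 12.66 in APPswe/PS1dE9 cultures, all above the 12.49, 12.59, 12.40 and 12.51 of WT cultures. Plxnc1, the Sema7a receptor, was at -0.19 with its second probe also at -0.19, and Plxnd1, the Sema3e receptor, was at 0.16 with its second probe at 0.05. Nrp1, which is also a VEGF co-receptor, was at 0.16 and above 0 on all 4 arrays (limma adjusted p = 0.186). Nrp2, the main neuropilin for Sema3f, was at -0.13.

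Several plexins passed under some settings. Without replicate 1, Plxna3 was at -0.33 (limma adjusted p = 0.0362), Plxna4 at -0.38 (limma adjusted p = 0.0274) and Plxnb2 at 0.36 (limma adjusted p = 0.0422). With median centring, Plxna2 at -0.43, Plxna3 at -0.38, Plxna4 at -0.45 and Sema7a at -0.38 passed as lower, while Plxnb1 at 0.12 and Plxnb2 at 0.14 did not pass. Plxna2 and Plxna4 also passed with the filter that asked for both channels on all 4 arrays (limma adjusted p = 0.0482 and 0.0480) and with trend and robust eBayes (limma adjusted p = 0.0344 and 0.0392), as did Sema7a under the eBayes setting (limma adjusted p = 0.0364). Over all the alternatives the fitted ratios of Plxna2, Plxna3 and Plxna4 stayed below 0 and those of Plxnb1 and Plxnb2 above 0, whereas Plxna1 ranged from -0.13 to 0.09.

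**Figure D1:**
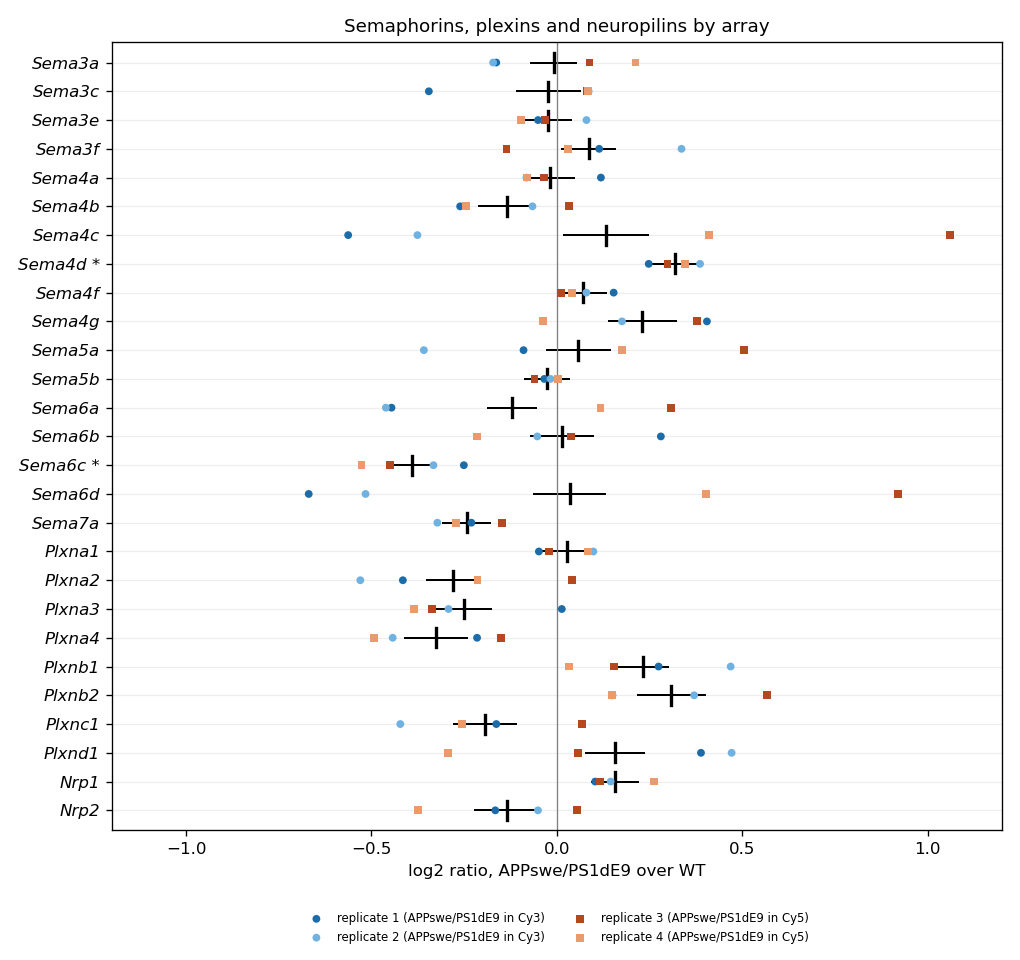
Log2 ratio of APPswe/PS1dE9 over WT for the 27 semaphorin-system genes (x axis), with circles for replicates 1 and 2, squares for replicates 3 and 4, a black bar for the fitted ratio and a line for its SE; stars mark the 2 genes past the test. Sema4d sits between 0.25 and 0.39 and Sema6c between -0.53 and -0.25 on all arrays, while Sema4c and Sema6d split by dye orientation.

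In the ephrin system, the ligand Efna1 had the largest ratio of the guidance genes. Efna1 encodes ephrin-A1, a GPI-anchored ligand of EphA receptors that is induced by TNF in endothelial cells. The log2 signal was 9.24, 8.67, 8.51 and 8.97 in APPswe/PS1dE9 cultures, against 8.61, 8.09, 8.25 and 8.08 in WT cultures. The genotypes overlapped across arrays, since the WT culture of replicate 1 exceeded the APPswe/PS1dE9 culture of replicate 3, but within each array APPswe/PS1dE9 was higher. The log2 ratio was 0.59 ± 0.11 (SE, n = 4 arrays; limma adjusted p = 0.0226), with 0.63, 0.58, 0.26 and 0.88 on the arrays. It was the 1 guidance gene of at least 1.5-fold. Without replicate 4 the log2 ratio was 0.43 (limma adjusted p = 0.0868), and with the processed signals it was 0.64 (limma adjusted p = 0.0821). Restricted to replicates 2 and 4, where the cultures matched in sex, and fitted without a dye term, it was 0.73 (limma adjusted p = 0.0499). No other guidance gene passed in that fit, where 2.34% of all features did.

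Efnb2, a transmembrane ephrin-B ligand that also signals into the cell that carries it, had the lowest ratio of the guidance genes. The log2 signal was 11.09, 11.26, 11.26 and 11.24 in APPswe/PS1dE9 cultures, against 11.69, 11.74, 11.51 and 11.90 in WT cultures. The 2 sets of signals did not overlap. The log2 ratio was -0.49 ± 0.09 (SE, n = 4 arrays; limma adjusted p = 0.0190), with -0.60, -0.48, -0.24 and -0.66 on the arrays. Without replicate 4 it was -0.39 (limma adjusted p = 0.106), with the processed signals -0.56 (limma adjusted p = 0.0531), and with the sex-matched arrays alone -0.57 (limma adjusted p = 0.0956). A second Efnb2 probe was not kept by the filter.

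The other ephrins did not pass. Efnb1, an X-linked ephrin-B, was at -0.28 ± 0.08 and below 0 on all 4 arrays (SE, n = 4 arrays; limma adjusted p = 0.0870), and without replicate 2 it passed at -0.36 (limma adjusted p = 0.0324). Efnb3 was at 0.06. Of the ephrin-A ligands, Efna2 was at -0.15, Efna5 at -0.03, Efna4 at 0.02 and Efna3 at 0.03, with limma adjusted p of 0.198 or above.

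Among the Eph receptors, Epha3 and Epha4 passed as lower. Epha3, a receptor that binds ephrin-A5, had log2 signals of 8.07, 8.20, 8.33 and 8.21 in APPswe/PS1dE9 cultures, against 8.53, 8.81, 8.71 and 8.57 in WT cultures. The genotypes did not overlap. Its log2 ratio was -0.45 ± 0.06 (SE, n = 4 arrays; limma adjusted p = 0.00881), the smallest adjusted p of the guidance genes, with -0.46, -0.61, -0.38 and -0.36 on the arrays. It passed under all 12 processing alternatives, with ratios from -0.78 to -0.45, but some of these reuse the same ratios and are not separate checks. Its limma adjusted p was 0.0807 without replicate 3, 0.0907 without replicate 4 and 0.168 with the sex-matched arrays alone.

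Epha4, which binds both ephrin-A and ephrin-B ligands, lay closest to the threshold. Log2 signals were 9.81, 9.85, 9.72 and 9.71 in APPswe/PS1dE9 cultures, against 9.99, 9.97, 10.22 and 10.02 in WT cultures. These did not overlap. The log2 ratio was -0.28 ± 0.07 (SE, n = 4 arrays; limma adjusted p = 0.0490), with -0.19, -0.12, -0.49 and -0.31 on the arrays. The call was lost under 7 of 12 processing alternatives and under each of the 4 fits that left out 1 replicate, with limma adjusted p of 0.0996, 0.0781, 0.189 and 0.127 without replicates 1 to 4 in turn.

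Epha5 and Epha7, the other EphA receptors among the 53, depended on the probe. The brightest probe of Epha5 was at 0.11 ± 0.13 and turned sign with the dyes, at -0.60, -0.39, 1.10 and 0.34 on replicates 1 to 4. Its second probe was lower on all 4 arrays, at -0.49, -0.42, -0.34 and -0.67, with a fitted ratio of -0.48 (limma adjusted p = 0.0169 in a fit of every kept probe, in which 8.75% of probes passed). Epha7 was below 0 on all 4 arrays with each of its 3 probes. The brightest was at -0.28 ± 0.08 (SE, n = 4 arrays; limma adjusted p = 0.0759), and in the fit of every kept probe the others were at -0.30 (limma adjusted p = 0.0844) and -0.63 (limma adjusted p = 0.0445). The mean over its probes was -0.40 and passed (limma adjusted p = 0.0351), as did the brightest probe without replicate 1 at -0.37 (limma adjusted p = 0.0203).

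Of the 5 EphB receptors, which bind mainly ephrin-B ligands, 0 passed in limma, 0 had an unadjusted p under 0.05, and 0 kept 1 sign on 4 arrays. Their log2 ratios were -0.08 for Ephb1, which was measured on 3 arrays, -0.01 for Ephb2, 0.12 for Ephb3, 0.01 for Ephb4 and 0.01 for Ephb6, which lacks kinase activity. The limma adjusted p was 0.547 or above for each. The second probes of Ephb4 and Ephb6 were at 0.08 and 0.30.

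In the Slit system the receptor Robo2 passed as lower. Log2 signals were 10.65, 10.73, 10.73 and 10.65 in APPswe/PS1dE9 cultures, against 11.25, 11.04, 11.03 and 11.29 in WT cultures. The APPswe/PS1dE9 cultures were close together and below every WT culture. The log2 ratio was -0.46 ± 0.09 (SE, n = 4 arrays; limma adjusted p = 0.0246), with -0.59, -0.31, -0.30 and -0.64 on the arrays. The second probe of Robo2 gave -0.49 and also passed in the fit of every kept probe (limma adjusted p = 0.0416). The limma adjusted p of the first probe was 0.0810 without replicate 3, 0.146 without replicate 4 and 0.0697 with the processed signals.

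Robo1, the other Slit receptor measured, was at -0.24 ± 0.06, with -0.20, -0.13, -0.27 and -0.36 on the arrays (SE, n = 4 arrays; limma adjusted p = 0.0594). It was the closest to the threshold among the genes that did not pass, and it passed at -0.36 with median centring (limma adjusted p = 0.0245), with the filter on both channels of all 4 arrays (limma adjusted p = 0.0484) and with trend and robust eBayes (limma adjusted p = 0.0407). The ligands Slit1 and Slit2 were at 0.02 ± 0.06 and 0.03 ± 0.08. Slit2, the highest of the system, had -0.07, 0.10, -0.10 and 0.19 on the arrays, and its fitted ratio turned to -0.21 with the processed signals.

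In the netrin system 0 of 4 genes passed in limma, and 0 had an unadjusted p under 0.05. Ntn1, the secreted ligand, was the highest at 0.27 ± 0.11 (SE, n = 4 arrays; limma adjusted p = 0.201), with -0.04, 0.49, 0.10 and 0.54 on the arrays. It passed without replicate 1 at 0.41 (limma adjusted p = 0.0262). The attractive receptor Dcc was at 0.11 ± 0.12, and the repulsive receptors Unc5b and Unc5a were at 0.09 ± 0.07 and 0.04 ± 0.07. The Dcc value rests on 1 of its 3 probes, with log2 signals of 14.10 to 14.95 over the cultures. The other Dcc probes were well above background on 1 or 2 arrays in each genotype and were not kept. Unc5a, the lowest of the system, had 0.32, 0.20, -0.32 and -0.06 on the arrays, so its sign followed the dye orientation.

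**Figure D2:**
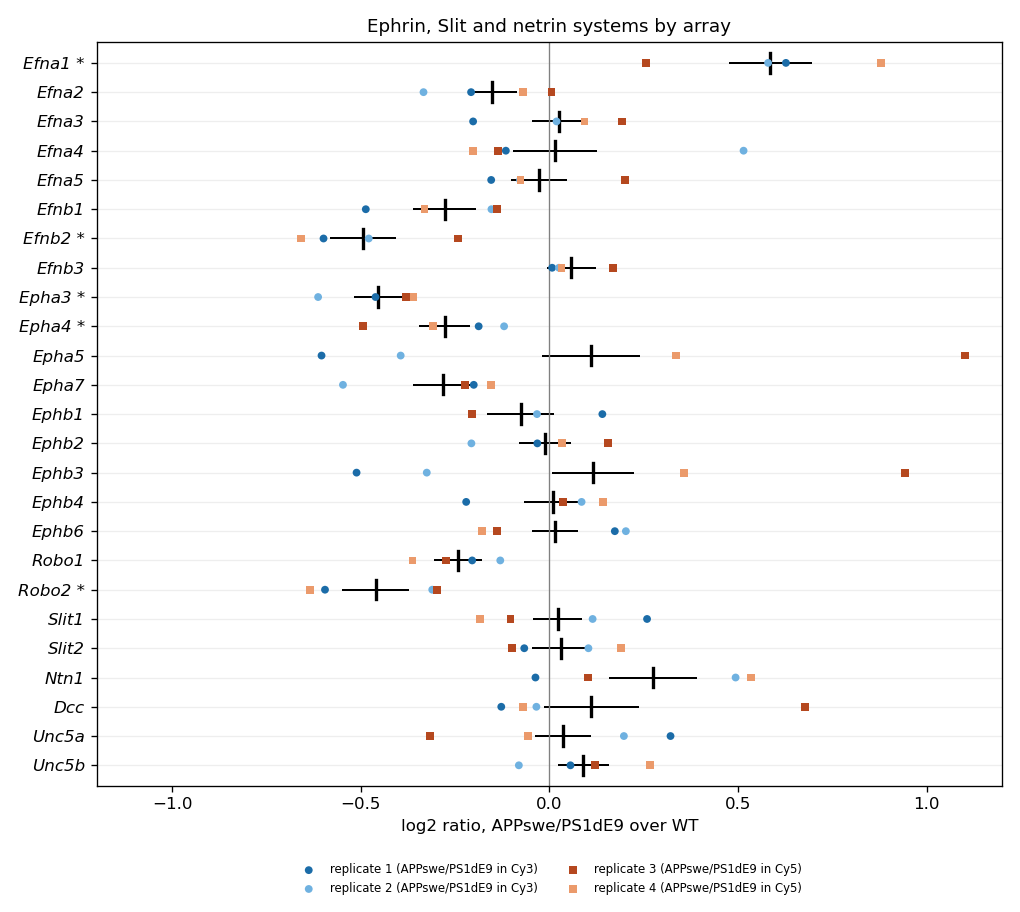
Log2 ratio of APPswe/PS1dE9 over WT for the measured genes of the ephrin, Slit and netrin systems (x axis), with symbols as for the semaphorin genes and stars on the 5 genes past the test. Efna1 lies above 0 and Efnb2, Epha3, Epha4 and Robo2 lie below 0 on all 4 arrays, while the brightest Epha5 probe and Ephb3 split by dye orientation.

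**Figure D3:**
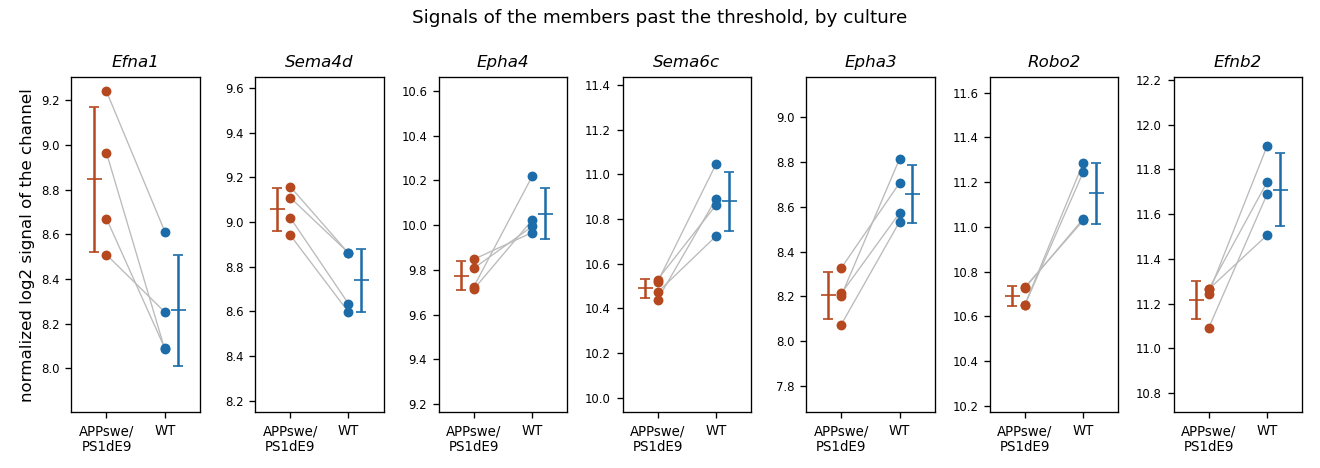
Normalized log2 signal (y axis) of the 7 genes past the test, with each culture as a point, the 2 cultures of an array joined by a line, and the mean ± SD of the 4 cultures beside them, APPswe/PS1dE9 left and WT right. The genotypes do not overlap in 6 of the panels and overlap in that of Efna1.

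Over the guidance genes with values on all 4 arrays, 17 of 51 (33.3%) had 1 sign on every array, 7 above 0 and 10 below 0. Of all features 28.8% did, and of all named genes 33.7%, so the share was near that of named genes. The log2 signals of the genotypes did not overlap in 8 of 51, against 12.5% of all features. Those were 6 of the 7 genes past the test, Sema7a and Plxnb2. The number of guidance genes above 0 was 18, 21, 30 and 24 on replicates 1 to 4.

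In 11 of the 51 genes the sign turned with the dye orientation, against 18.6% of all features. In 8 of these the ratio was below 0 with APPswe/PS1dE9 in Cy3 and above 0 with it in Cy5: Epha5, Ephb2, Ephb3, Sema3a, Sema4c, Sema5a, Sema6a and Sema6d. The reverse held for Ephb6, Slit1 and Unc5a. The dye intercept, the part of the log2 ratio that changes sign with the dyes, was at least 0.5 in 4 guidance genes (Epha5, Ephb3, Sema4c and Sema6d), and 0.971% of all features reached that size in either direction. Sema4c, a ligand of plexin-B2, was at -0.56, -0.38, 1.06 and 0.41 on replicates 1 to 4. Sema6d, a ligand of plexin-A1, was at -0.67, -0.52, 0.92 and 0.40. Both thus moved opposite ways with the dyes, as did Ephb3, at -0.51, -0.32, 0.94 and 0.36. The dye term passed the threshold in 0 features in limma, with 12 guidance genes and 3114 features at an unadjusted p under 0.05, and a missed threshold does not show that the orientations were alike. The genotype ratio of these 4 genes is a mean of opposite values.

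**Figure D4:**
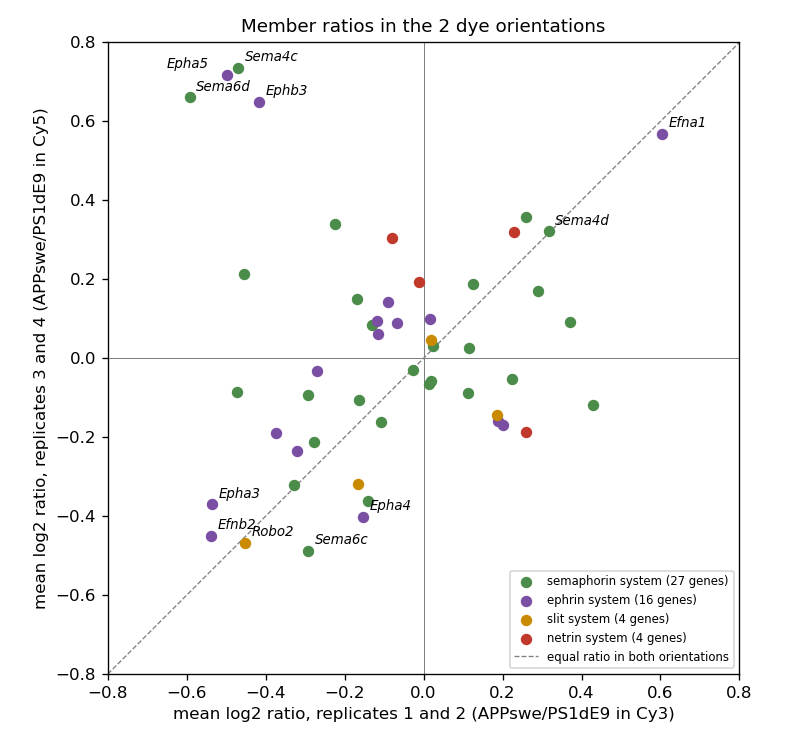
Mean log2 ratio of APPswe/PS1dE9 over WT on replicates 1 and 2 (x axis) against that on replicates 3 and 4 (y axis) for the 51 guidance genes with values on all arrays, coloured by system, with the diagonal of equal ratios. The 7 genes past the test lie in the quadrants of equal sign, and Epha5, Ephb3, Sema4c and Sema6d stand alone at the upper left.

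Several probes were kept for 12 of the guidance genes, and in 9 of them the probes shared 1 sign. The other 3 were Epha5, Sema5b, at -0.03 and 0.02, and Sema6d, at 0.03 and -0.0016. Both probes of Nrp2 were below 0, at -0.13 and -0.03, and both of Sema3c were, at -0.02 and -0.07. For Dcc, Efna3, Efnb2, Ntn1, Plxna4 and Sema3a only 1 of several probes was kept.

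Lists of related genes outside the 53 gave further counts. Of 19 other members of the same families, 11 were measured, 2 were higher and 2 lower. The share that passed was 36.4%, against 10.5% of all features and 13.6% of all named genes, and the difference was not tested. Sema3b, a secreted class 3 semaphorin, was 1.70-fold higher, at 0.77 ± 0.06 (SE, n = 4 arrays; limma adjusted p = 0.00118), with 0.66, 0.68, 0.82 and 0.92 on the arrays. It passed under every one of the 12 processing alternatives, the 4 fits without a replicate and the fit of the sex-matched arrays. Some of the processing alternatives reuse the same ratios. Epha2, a receptor of ephrin-A1, was higher at 0.62 ± 0.09 (SE, n = 4 arrays; limma adjusted p = 0.0103), but it was well above background on 3 APPswe/PS1dE9 arrays and 1 WT array and so entered through the APPswe/PS1dE9 channel alone. Its ratio therefore has no firm size, at 1.72 with the processed signals (limma adjusted p = 0.0633), and its limma adjusted p was 0.0649 without replicate 4. The netrin receptor Unc5c and the membrane-anchored Ntng1 were lower, each at -0.34 ± 0.07 (SE, n = 4 arrays; limma adjusted p = 0.0335 and 0.0378). Both calls were lost without replicate 2, 3 or 4, with limma adjusted p of 0.0582 to 0.152 for Unc5c and 0.0963 to 0.180 for Ntng1. With the processed signals their ratios were -0.54 and -0.61. Sema3d, Sema3g, Epha1, Robo3, Robo4, Ntn5, Ntng2 and Unc5d each had 1 matched probe, which the filter did not keep. Epha6, Epha8, Epha10, Ntn3, Ntn4 and Neo1 were measured and did not pass, with ratios from -0.12 to 0.10.

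Of 45 intracellular effectors of these receptors, 44 were measured, 2 were higher and 1 lower, with a median log2 ratio of -0.04. The share that passed was 6.82%, below the 10.5% of all features and the 13.6% of all named genes. Ngef, which encodes ephexin, an exchange factor that acts downstream of EphA receptors, was at 0.42 ± 0.06 (SE, n = 4 arrays; limma adjusted p = 0.0104). Dock1, an exchange factor for Rac, was at 0.32 ± 0.07 (limma adjusted p = 0.0351), and Crmp1, which transduces Sema3a signals, was at -0.26 ± 0.06 (limma adjusted p = 0.0489). The Ngef call was lost without replicate 3 or 4 (limma adjusted p of 0.0837 and 0.0818), the Dock1 call without replicate 2, 3 or 4 (0.0942, 0.116 and 0.165), and the Crmp1 call without any 1 replicate (0.0799 to 0.173). Over the 12 processing alternatives Ngef ranged from 0.25 to 0.42, Dock1 from 0.19 to 0.33 and Crmp1 from -0.44 to -0.26.

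Of 16 other surface cues and adhesion partners, 12 were measured, 1 was higher and 1 lower, with a median of -0.01. The share that passed was 16.7%, against 10.5% of all features and 13.6% of all named genes, and the difference was not tested. Flrt3, a membrane protein that binds Unc5 receptors, was at -0.43 ± 0.06 (SE, n = 4 arrays; limma adjusted p = 0.0117). Its call held under all 12 processing alternatives, some of which reuse the same ratios. The limma adjusted p of Flrt3 was 0.0821 without replicate 3 and 0.107 without replicate 4. Rgma, a repulsive ligand of neogenin, was at 0.29 ± 0.07 (limma adjusted p = 0.0460), and its call was lost without replicate 2, 3 or 4 (limma adjusted p of 0.146, 0.152 and 0.185). With median centring Rgma was at 0.18 (limma adjusted p = 0.323).

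**Figure D5:**
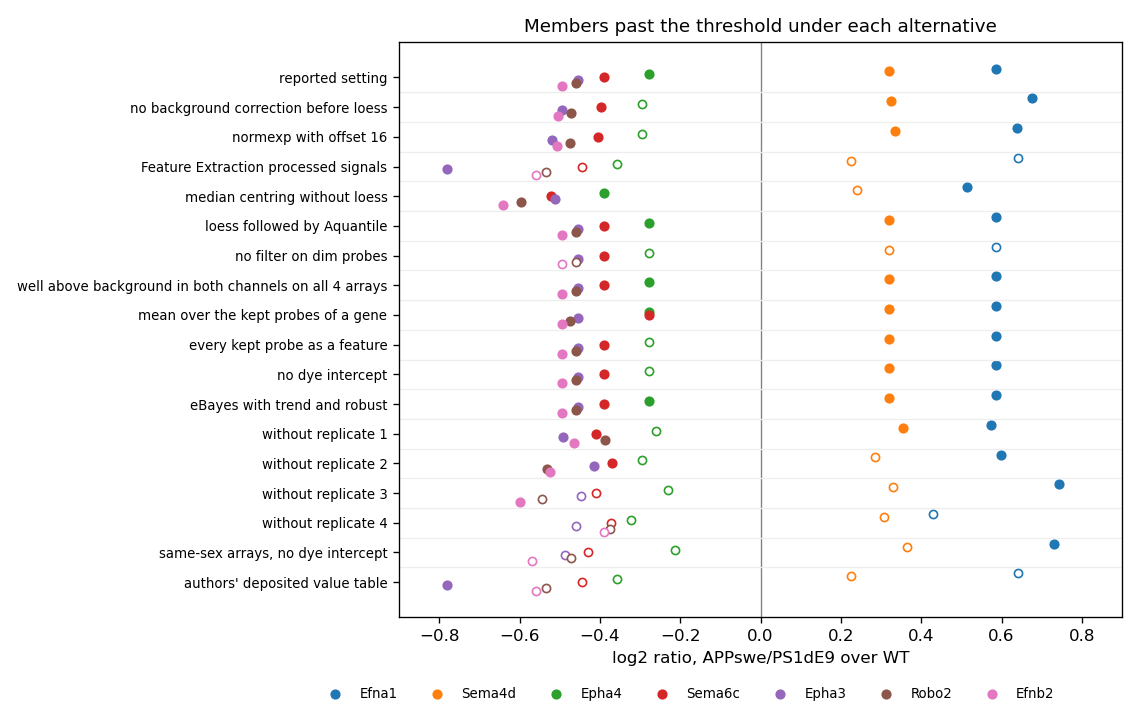
Log2 ratio of APPswe/PS1dE9 over WT (x axis) of the 7 guidance genes past the test under each processing alternative and without each replicate (rows), with filled circles for adjusted p under 0.05 and open circles otherwise. Each gene keeps its sign in every row, and without replicate 4 all 7 circles are open.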

How the data were processed

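Two-colour arrays were read with Feature Extraction 11.0.1.1 on 1 slide, with mm9 annotation, per the file headers. The authors deposited unnormalized median intensity values per spot and channel, and beside them processed intensity values, which per the file headers had background subtracted and dyes normalized. They also deposited a value table of 29350 spots whose scale, centring and direction are unstated. Compared array by array with the scanner values, this deposited table held log2 ratios of processed signal, uncentred, APPswe/PS1dE9 over WT, with column medians of -0.0797, -0.155, -0.0373 and -0.0378.

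Median signals were corrected by normexp with an offset of 50, which draws ratios of dim spots towards 0, and normalized by loess within each array in limma 3.58.1 (R 4.3.3), with control and outlier spots at weight 0. The design had named mean signals, which are not used here. Probes were kept where either genotype's channel exceeded background on 3 or more of the 4 arrays. A gene was represented by its brightest kept probe. Accessions were named through RefSeq (GRCm38.p6, used for names and for promoter sequences), which matched 27509 probes to 20887 symbols. Ratios were fitted on genotype and dye terms by lmFit and eBayes (2 residual and 4.13 prior degrees of freedom). Their p-values were adjusted by Benjamini-Hochberg over 20591 features at a threshold of 0.05. SE and p-values cover the spread between arrays of 1 dye orientation, and the number of arrays limits the precision. Signals per channel, and their sums over marker lists, were taken after loess and Aquantile scaling between arrays. The fitting code was tested on simulated data.

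The members and the gene lists were chosen with earlier results of these data known. Every member is named. Called members of 1 sign throughout, and the highest and lowest of each system, are given by array. Up to 4 genes of smallest adjusted p are named per other list. Sema7a, Plxnb2 and the genes that turned with the dyes were singled out after their values were seen. Alternatives covered background correction, normalization, the filter, the rule for several probes, the dye term, the variance model, each replicate, the sex-matched arrays and the deposited table. Not all are separate checks. Aquantile scaling leaves the ratios within an array unchanged, and the deposited table repeats the processed signals. The rules for several probes leave the ratio of a gene with a single kept probe as it was.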

Additional observations from a re-analysis of the deposited data

Results flagged for a closer look

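In 4 of 51 guidance genes 1 array stood apart from the other 3 by Dixon's test, which chance gives in about 5% of groups. Dcc was at 0.68 on replicate 3, against -0.13, -0.03 and -0.07 on the others. Efna4 was at 0.51 on replicate 2, against -0.12, -0.14 and -0.20. Efnb3 was at 0.17 on replicate 3, against 0.01, 0.03 and 0.03. Sema3c was at -0.35 on replicate 1, against 0.09, 0.08 and 0.08. None of these genes passed the test, and the values are log2 ratios of APPswe/PS1dE9 over WT.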

How the results depend on the processing

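Over all features 2168 passed the test. The count was 955 with the processed signals, 954 with the deposited table, 1063 without the filter on dim probes, 481 on the sex-matched arrays, and 372 to 2771 without 1 replicate. Of the guidance genes 7 passed, and 1 did with the processed signals and with the deposited table (Epha3), 1 on the sex-matched arrays (Efna1), 2 without the filter, 11 with trend and robust eBayes, 13 with median centring, and 0 to 11 without 1 replicate. Median log2 ratios moved with the scaling, as did that of all features, which was 0.012 as reported, -0.065 with the processed signals and the deposited table and -0.074 with median centring. For all guidance genes the median was -0.13 with the processed signals and the deposited table and -0.088 with median centring. For the semaphorin system these were -0.10, -0.10 and -0.068, and for the ephrin system -0.17 with both the processed signals and the deposited table. For the Slit system they were -0.28, -0.28 and -0.23, with 0.022 without the filter, and for the netrin system the median was -0.040 with median centring. Slit2 turned to -0.21 with the processed signals and the deposited table and to -0.013 with median centring, with -0.040 to 0.10 without 1 replicate. Unc5a turned to -0.016, -0.016 and -0.086 under the same 3 settings, with -0.029 to 0.10 without 1 replicate. Epha5 turned to -0.055 with median centring, -0.18 with the mean over probes and -0.029 on the sex-matched arrays, with -0.082 to 0.30 without 1 replicate. The turns under a scaling include this shift of all features, and no other cause was tested. Of the values of single genes under the alternatives, 233 kept direction and call, 106 lost the call, 4 gained it and 13 turned sign. Alternatives that reuse the same ratios are each counted here. The fit was paired by array, since each ratio sets 1 APPswe/PS1dE9 culture against the WT culture of the same array. No other pairing is in the labels, where the replicate numbers name arrays. With 4 arrays, 2 per dye orientation, differences of about the spread between arrays were not resolved.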
